A study of Mus musculus with 6 samples.

Results

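Antisense RNA genes are annotated non-coding genes whose transcripts run against the strand of another gene. The 214 genes described here were chosen by their measured level and class: those of the antisense class in GENCODE M21 with at least 120 counts summed over 6 libraries, with Gas5, Zfas1 and names starting with Snhg to be left out, which removed 0 genes. The count table held 55335 genes, among them 2959 antisense genes, of which 1550 had 1 count or more. The libraries were total RNA from bone marrow-derived macrophages (BMDMs) of C57BL/6 mice, 3 given PBS (the control) and 3 given LPS (a component of the outer membrane of Gram-negative bacteria sensed through TLR4), all collected after 1 h. According to the methods of the study, the mice were male and 7 to 10 weeks old, and marrow was grown for 6 days in medium with L929-conditioned medium before treatment; both groups are wild type, and the labels give no LPS dose. BMDMs grown this way model macrophages in culture and are not tissue macrophages.

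Antisense transcription is common in mammalian genomes. Many antisense RNAs start at or near the promoter of a coding gene and run the other way, and others start inside a gene or run into its 3′ end. Such RNAs are mostly short-lived: early termination and the nuclear exosome, an RNA-degrading complex, remove many of them. A few have known roles in cis, such as Kcnq1ot1 and Airn, which silence neighbouring genes on one parental chromosome, and some are host transcripts of microRNAs.

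The libraries held between 37787611 and 41516330 counts, and 3 counts, used here as the floor of detection, corresponded to 0.0630 to 0.0919 CPM (counts scaled to library size and TMM factor). The 8 macrophage markers summed to between 29900 and 31200 CPM in PBS and between 35900 and 36200 CPM in LPS libraries. Markers of other cells were low: the 7 neutrophil markers summed to 36.8 to 39.2 and 49.3 to 51.3 CPM, the 5 fibroblast markers to 13.5 to 14.6 and 15.2 to 17.6 CPM, the 4 dendritic cell markers to 3.15 to 4.01 and 9.62 to 10.6 CPM, the 5 B cell markers to 2.88 to 3.17 and 2.88 to 3.64 CPM, and the 6 T and NK cell markers to 1.13 to 1.26 and 1.38 to 1.58 CPM. The 5 red cell markers reached at most 0.298 CPM, with 2 of them at 0 in every library. Their part in the antisense values was not tested.

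Reads of an antisense gene can be told from those of its partner only where the counting used strand. The library kit keeps strand, while the strand setting of the counting is not given in the sources used here. Of 477 genes whose exon bases all lie inside exons of the other strand, 217 had a count and 27 reached 120 counts, such as Pdcd2 (1952 counts), Lrrc14b (1448 counts) and Icam4 (1053 counts). The member Gm11175 lies wholly inside exons of Jund, with 877 of 877 exon bases shared, and its level per kb was 2.06% of the level of Jund. Of the 214 members, 165 shared at least 1 exon base with a gene of the other strand and 49 shared none. Of all members, 17 shared exon bases with a gene of their own strand, where reads cannot be separated by strand.

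The sequence around the start of an antisense gene is shown for members that changed with LPS, because these genes are little known and most have only a model number as a name. The 3 members with the largest rises and the 3 with the largest falls were taken among those whose annotated start lies in a RefSeq promoter window (GRCm38.p6, 250 bases before and 50 after the RefSeq start) that holds no UTR base. Small letters are bases before the annotated start, and capitals are bases from that start on, so capitals mark the transcribed side. The window of Il1bos, chr2:129369652-129369951 on the plus strand, lies within the Il1b gene.
Il1bos: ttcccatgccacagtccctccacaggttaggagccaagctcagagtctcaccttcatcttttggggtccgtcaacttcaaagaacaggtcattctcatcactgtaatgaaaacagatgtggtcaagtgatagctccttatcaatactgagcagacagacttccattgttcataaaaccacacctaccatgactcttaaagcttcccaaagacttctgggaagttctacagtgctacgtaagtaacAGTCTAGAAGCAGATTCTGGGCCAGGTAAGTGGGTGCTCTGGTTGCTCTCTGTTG
The window of Gm10791 is chr16:84971961-84972260 on the plus strand, and that of Dnm3os is chr1:162217373-162217672 on the plus strand. Both genes lie within introns of their partners, App and Dnm3.
Gm10791: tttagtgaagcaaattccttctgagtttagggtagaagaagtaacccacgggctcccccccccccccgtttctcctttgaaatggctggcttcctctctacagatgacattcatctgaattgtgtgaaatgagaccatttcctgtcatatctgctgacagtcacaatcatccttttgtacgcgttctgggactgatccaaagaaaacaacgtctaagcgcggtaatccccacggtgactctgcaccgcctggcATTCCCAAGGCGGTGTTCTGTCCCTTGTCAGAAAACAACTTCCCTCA
Dnm3os: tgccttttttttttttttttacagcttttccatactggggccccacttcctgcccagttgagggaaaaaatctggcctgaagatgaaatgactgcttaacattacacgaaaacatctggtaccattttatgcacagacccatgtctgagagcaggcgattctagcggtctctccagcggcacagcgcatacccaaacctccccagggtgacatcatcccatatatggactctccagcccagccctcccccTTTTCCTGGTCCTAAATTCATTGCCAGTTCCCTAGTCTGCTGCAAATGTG
The 3 windows of members that fell are chr10:60931740-60932039 on the plus strand for Gm26947, chr9:57131241-57131540 on the minus strand for Man2c1os and chr7:143296498-143296797 on the minus strand for Kcnq1ot1.
Gm26947: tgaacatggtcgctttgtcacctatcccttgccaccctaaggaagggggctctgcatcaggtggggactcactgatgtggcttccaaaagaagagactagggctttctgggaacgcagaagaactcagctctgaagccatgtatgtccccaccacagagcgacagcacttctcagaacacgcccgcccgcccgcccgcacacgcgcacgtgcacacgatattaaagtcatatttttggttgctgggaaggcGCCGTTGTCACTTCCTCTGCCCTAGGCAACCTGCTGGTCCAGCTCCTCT
Man2c1os: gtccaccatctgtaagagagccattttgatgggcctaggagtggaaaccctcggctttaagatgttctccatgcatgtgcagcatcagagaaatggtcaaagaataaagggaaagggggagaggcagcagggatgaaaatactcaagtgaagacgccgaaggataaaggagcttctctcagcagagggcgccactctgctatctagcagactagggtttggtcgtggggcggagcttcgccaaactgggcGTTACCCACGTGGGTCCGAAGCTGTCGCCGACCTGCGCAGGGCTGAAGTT
Kcnq1ot1: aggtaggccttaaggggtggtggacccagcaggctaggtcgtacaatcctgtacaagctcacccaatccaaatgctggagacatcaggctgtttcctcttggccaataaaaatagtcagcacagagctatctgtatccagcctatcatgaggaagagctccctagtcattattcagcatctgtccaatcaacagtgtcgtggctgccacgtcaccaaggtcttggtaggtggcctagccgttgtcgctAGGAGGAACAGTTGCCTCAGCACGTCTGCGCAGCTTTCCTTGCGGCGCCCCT
These windows were searched on both strands for a kappaB motif, an AP-1 motif TGANTCA, a CRE TGACGTCA, a TATA box TATAAA and an ETS motif GAGGAAGT. Of the 6 windows, that of Gm26947 held an ETS match from base 261, and the others held none of the 5 motifs.

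RefSeq gave a window by symbol for 109 of the 214 members, and in 64 of them the annotated start fell inside it. The kappaB motif was present in 6 of these 64 windows (9.38%), against 5.56% of 32851 windows of the same length for all genes. None of the 7 windows of members that rose and none of the 17 of members that fell held it. These windows are too few to compare with the share of all windows, and other forms of the motif were not searched. The AP-1 motif was present in 5 windows (7.81%, against 7.81% of all windows), again in 0 of the 7 and 0 of the 17. The TATA box was in 4 (6.25% against 13.6%), the ETS motif in 6 (9.38% against 3.20%) and the CRE in 1 (1.56% against 1.79%). A match is a description of these letters only.

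After 1 h of LPS, antisense genes moved in both directions, with more of them lower than higher. Of the 214 members, 27 rose and 55 fell by edgeR's quasi-likelihood test, with adjusted p limited to 0.05 and a change of more than 1 log2 unit required, and 132 did not pass. Over all 15687 genes tested, 10.5% rose and 10.4% fell (20.9% in all), against 12.6% and 25.7% of the members. The limit on adjusted p alone was met by 158 members, 49 higher and 109 lower with LPS, beside 67.7% of all genes tested, and in 160 members the groups did not overlap, beside 70.5%. The median log2 fold change of the members was -0.47, beside -0.01 over all genes tested. Log2 fold changes ran from 1.12 to 9.17, with a median of 2.24, among those that rose. They ran from -4.74 to -1.0, with a median of -1.65, among those that fell. The threshold on the total count bears on these sizes, so they were not compared. Of the members that rose, 15 had under 60 counts over the PBS libraries, and of those that fell, 28 had under 60 over the LPS libraries. All 214 members passed the filter on low counts, and each of the 82 called members kept its direction in all 3 same-numbered pairs of libraries and had groups that did not overlap.

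This balance shifted with the scaling between libraries. It also differed between members with and without exon bases inside exons of the other strand. Those sets hold different genes and were not compared by a test, so the part of the overlap was not tested. With library size alone in place of TMM, which shifted the median of all genes from -0.01 to -0.42, 22 members rose and 91 fell. Among the 49 members with no exon base inside an exon of the other strand, 11 rose and 6 fell, with a median of -0.22; among the 165 that share exon bases, 16 rose and 49 fell, with a median of -0.51.

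The total count chose the members, so a gene at the floor in one group is a member only because of the other. Of the 15 members with under 60 counts over the PBS libraries all 15 rose, and of the 45 with under 60 counts over the LPS libraries 28 fell. Among the 154 members with at least 60 counts in each group, 12 rose and 27 fell, with a median of -0.30. At the edge of the rule, E430024P14Rik (120 counts, log2 fold change -0.80) and Etaa1os (122 counts, -1.14) were just inside, and Gm14320 (119 counts, -0.67) and Gm33023 (119 counts, -0.96) just outside.

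Shares that changed varied among the other classes with at least 120 counts. Of 247 lincRNA genes 18.6% rose and 25.5% fell, with a median log2 fold change of -0.4. Of 56 bidirectional promoter lncRNA genes 16.1% rose and 30.4% fell (median -0.28). Of 181 processed transcripts 13.8% rose and 25.4% fell (median -0.4). The median of the members was -0.47. The largest non-coding class, 721 genes of the class TEC, had near-equal shares of rises and falls, 21.2% and 21.8%, and a median log2 fold change of 0.0. Of 11492 coding genes 8.41% rose and 6.97% fell. Non-coding genes have fewer counts than coding genes, and the classes were not compared by a test. The members took between 941 and 965 CPM in PBS libraries and between 829 and 857 CPM in LPS libraries, so the groups did not overlap in the summed level. This sum is weighted towards a few abundant members, which are described below. Among them F630028O10Rik and Kcnq1ot1 fell, 4930430E12Rik was higher with LPS and Tug1 was level. The share of counts on all antisense genes, without the TMM factor, was 0.122 to 0.124% with PBS and 0.0799 to 0.0843% with LPS. The TMM factors were 1.15 with PBS and 0.864 to 0.872 with LPS, so this share and the CPM above differ in scale. The mitochondrial share was 0.97 to 1.07% and 1.21 to 1.34%, and its part in these values was not tested.

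**Figure D1:**
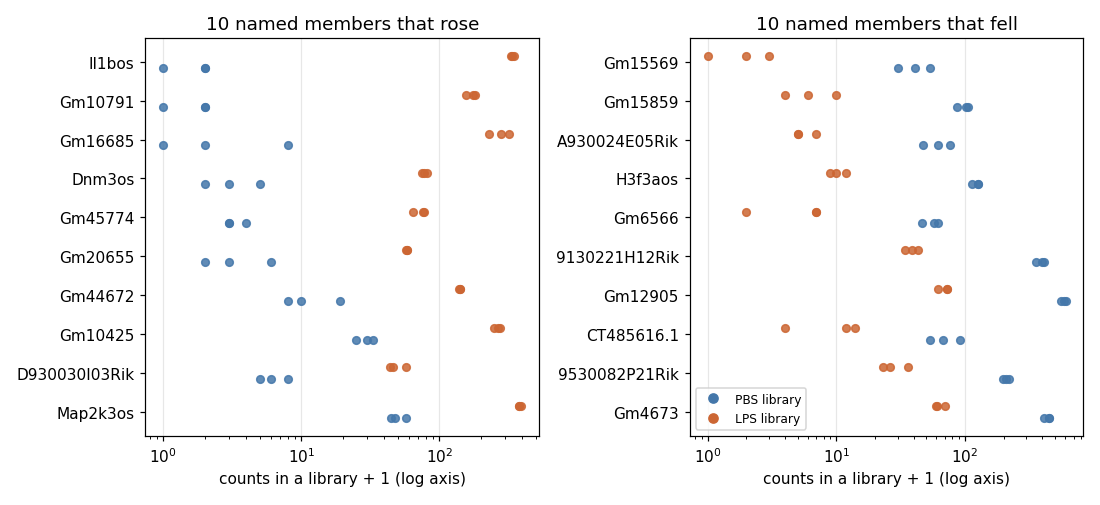
Counts in each of the 6 libraries (x axis, counts + 1 on a log axis) for the 10 named members with the largest rises (left) and the 10 with the largest falls (right). PBS libraries are blue and LPS libraries orange, and in each of the 20 genes shown the groups do not overlap; Il1bos went from 0, 1 and 1 counts to 328, 334 and 347.

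The largest rise was that of Il1bos (ENSMUSG00000074805.5, chr2:129369897-129375748, plus strand), which starts inside Il1b, the gene of the cytokine IL-1 beta, and runs out through its 5′ side. Il1bos had 0, 1 and 1 counts in PBS replicates 1, 2 and 3 and 328, 334 and 347 in LPS replicates 1, 2 and 3. All LPS libraries were far above all PBS libraries. The fitted log2 fold change was 9.17 (standard error, SE, 0.24, edgeR adjusted p = 2.20e-16), and the ratio of summed normalized counts was 699 (95% exact counting interval 193 to 5782), an interval that covers counting error only. Il1b had 102, 97 and 104 counts with PBS and 256048, 246750 and 260493 with LPS, a log2 fold change of 11.77 (SE 0.05, edgeR adjusted p = 3.06e-27).

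The exons of Il1bos and Il1b share 25 bases, chr2:129369897-129369921, which are the first bases of Il1bos and lie outside the annotated coding sequence of Il1b. They are given on both strands, each 5′ to 3′, to show the exon bases that the 2 genes have in common.
Il1bos: AGTCTAGAAGCAGATTCTGGGCCAG
Il1b: CTGGCCCAGAATCTGCTTCTAGACT
For every 100 counts of Il1b there were 0.660 counts of Il1bos in PBS libraries (95% exact counting interval 0.0796 to 2.41) and 0.132 in LPS libraries (0.124 to 0.141). The fitted ratio fell by 4.43 on the log2 scale (limma adjusted p = 1.35e-10, prior count of 2), but by 3.08 with a prior count of 0.5, and the LPS value lies within the counting interval of the PBS value.

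Gm10791 (ENSMUSG00000115518.1, chr16:84972214-84979451, plus strand) rose next most and lies in an intron of App, the amyloid precursor protein gene, with all 1651 exon bases in App introns. It had 0, 1 and 1 counts with PBS and 181, 154 and 175 with LPS. The ratio of summed normalized counts was 353 (95% exact counting interval 97.3 to 2927), and the log2 fold change was 8.18 (SE 0.30, edgeR adjusted p = 3.84e-14). App itself had 18572, 18396 and 18173 counts with PBS and 17094, 17369 and 16959 with LPS, a log2 fold change of 0.37 that did not pass the criteria. The start of Gm10791 is 201552 bp from that of App.

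Gm16685 (chr3:7612705-7690001, plus strand) overlaps the start of Il7, a cytokine gene for lymphocyte growth, by 105 exon bases. Its counts were 0, 7 and 1 with PBS and 281, 318 and 228 with LPS, with a log2 fold change of 7.09 (SE 0.32, edgeR adjusted p = 8.98e-13). Il7 stayed at low counts, with 12, 18 and 14 against 30, 18 and 32, and rose with a log2 fold change of 1.32 (edgeR adjusted p = 8.11e-04), or 0.92 and not past the criteria with library size alone. The antisense gene was below its coding partner in counts with PBS and above it with LPS: there were 18.2 counts of Gm16685 per 100 counts of Il7 with PBS and 1034 with LPS.

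Dnm3os (chr1:162217623-162225550, plus strand) is a single-exon gene inside an intron of Dnm3, which codes for the membrane-remodelling protein dynamin 3, and it is the host transcript of Mir199a-2 and Mir214. It had 4, 2 and 1 counts with PBS and 80, 77 and 74 with LPS (log2 fold change 5.43, SE 0.31, edgeR adjusted p = 2.80e-11), while Dnm3 had 11, 8 and 10 counts against 7, 8 and 3 and was too low to be tested. The most abundant host transcript among the members, F630028O10Rik (chrX:96239926-96243636, plus strand), holds Mir223, a microRNA of myeloid cells. F630028O10Rik had 7455, 6781 and 7202 counts with PBS and 2549, 2218 and 2709 with LPS, and fell by 1.05 on the log2 scale (SE 0.05, edgeR adjusted p = 6.15e-13). Without LPS replicate 2 its log2 fold change was -0.99 and it no longer passed the criteria.

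The mature microRNAs encoded in these 2 host genes are shown from RefSeq (GRCm38.p6), with the seed, bases 2 to 8, in capitals, since the seed sets which targets a microRNA pairs with. The microRNAs of Dnm3os come first.
mmu-miR-199a-5p: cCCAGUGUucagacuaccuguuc
mmu-miR-199a-3p: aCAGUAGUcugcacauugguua
mmu-miR-214-5p: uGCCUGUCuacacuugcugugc
mmu-miR-214-3p: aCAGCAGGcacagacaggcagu
mmu-miR-223-5p: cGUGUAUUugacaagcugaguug
mmu-miR-223-3p: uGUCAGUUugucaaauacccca
No 2 of these 6 arms share a seed. In all, 6 members hold 7 annotated microRNA genes on their own strand, and each of these 7 genes had 0 counts in every library, so the values describe the host transcripts and not the mature microRNAs.

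Several further rises lay at starts of coding genes that rose as well. Gm45774 (chr8:94170748-94173412, minus strand) starts 748 bp from the start of Mt2, a metallothionein gene for metal binding. It had 2, 2 and 3 counts with PBS and 63, 75 and 76 with LPS, with a log2 fold change of 5.32 (edgeR adjusted p = 3.45e-11) and a ratio of summed normalized counts of 42.4 (95% exact counting interval 20.2 to 107). Mt2 had 112, 105 and 108 counts against 1769, 1806 and 1824, a log2 fold change of 4.52. The fitted ratio of Gm45774 to Mt2 changed by -0.05 on the log2 scale (SE 0.26, limma adjusted p = 0.878, prior count of 2). At 2, 2 and 3 counts with PBS this value depends on the prior count. Counts of Gm45774 per 100 counts of Mt2 were 2.15 with PBS (95% exact counting interval 0.859 to 4.49). With LPS they were 3.96 (3.441 to 4.545).

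Gm26885 starts 1172 bp from the start of Pim1, a survival kinase gene, on the other strand. Gm26885 had 4, 9 and 5 counts against 53, 37 and 47 (log2 fold change 3.37, SE 0.32), and Pim1 had 5237, 5388 and 5216 against 47414, 45116 and 44525 (log2 fold change 3.58, SE 0.04). Gm10425 lies inside Exoc3l4, beside Tnfaip2. Gm10425 had 32, 24 and 29 counts against 267, 248 and 272 (log2 fold change 3.68, SE 0.13), and Exoc3l4 had 157, 152 and 147 against 1072, 1042 and 977 (log2 fold change 3.23, SE 0.07). In both pairs the 2 strands moved up by similar amounts, and neither ratio passed the criteria (-0.58, adjusted p = 0.0886, and 0.37, adjusted p = 0.0384, by limma).

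Map2k3os (chr11:60920917-60931867, minus strand) starts 166 bp from Map2k3, a kinase gene that activates p38, and does not overlap it. It had 56, 47 and 44 counts with PBS and 378, 392 and 374 with LPS, with no overlap between groups. The log2 fold change was 3.43 (SE 0.11, edgeR adjusted p = 6.42e-15). Map2k3 had 1651, 1587 and 1550 counts against 6707, 6641 and 6596, a log2 fold change of 2.53 (SE 0.04). The difference between these 2 changes was not tested, since the pair does not overlap.

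Gm44672 and D930030I03Rik rose beside coding genes that did not pass the criteria, and Gm20655 beside one that passed narrowly. Gm44672 starts 333 bp from Sec23ip, a gene of the secretory pathway. Gm44672 had 9, 18 and 7 counts against 140, 139 and 138, a log2 fold change of 4.07 (SE 0.22, edgeR adjusted p = 1.12e-11), while Sec23ip had 2153, 1999 and 2061 counts against 1806, 1780 and 1951 and a log2 fold change of 0.30. D930030I03Rik starts 721 bp from Adprh, an ADP-ribose hydrolase gene, and had 5, 4 and 7 counts against 45, 43 and 56 (log2 fold change 3.60, SE 0.30), beside 0.56 for Adprh. Gm20655 had 1, 5 and 2 counts against 57, 57 and 56 (log2 fold change 4.81, SE 0.35). Its partner Txlnb, with 13, 15 and 9 counts against 12, 22 and 24, passed with a log2 fold change of 1.11 that did not pass when LPS replicate 2 (0.99), LPS replicate 3 (0.94) or PBS replicate 3 (0.93) was left out, nor with library size alone (0.71) or upper quartile scaling (0.97).

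The largest fall, that of Gm15569, occurred beside a coding gene that did not pass the criteria. Gm15569 (chr15:86185728-86187152, plus strand) starts 413 bp from the start of Cerk, the ceramide kinase gene, on the other strand. Gm15569 had 29, 53 and 40 counts with PBS and 1, 2 and 0 with LPS, with a log2 fold change of -4.74 (SE 0.55, edgeR adjusted p = 5.77e-07). The summed normalized counts were 29.3 times as high with PBS (95% exact counting interval 9.81 to 144). Cerk had 15967, 15200 and 15224 counts against 10927, 10326 and 10834, a log2 fold change of -0.06 (edgeR adjusted p = 0.0948).

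H3f3aos starts 167 bp from H3f3a, which codes for the replacement histone H3.3. H3f3aos had 125, 112 and 125 counts with PBS and 9, 11 and 8 with LPS, and fell by 3.21 on the log2 scale (SE 0.21, edgeR adjusted p = 2.22e-10). H3f3a had 12970, 11625 and 13317 counts against 11734, 10456 and 11836, a log2 fold change of 0.31. Counts of H3f3aos per 100 counts of H3f3a went from 0.955 to 0.0823.

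A930024E05Rik, which starts 469 bp from Kdm2b, a histone demethylase gene, had 76, 61 and 46 counts against 4, 4 and 6 and fell by 3.21 on the log2 scale (SE 0.33, edgeR adjusted p = 1.06e-07). Kdm2b had a log2 fold change of -0.29. Gm6566, inside Gstz1, a gene of tyrosine breakdown, had 61, 45 and 57 counts against 6, 1 and 6 (log2 fold change -3.15, SE 0.36), beside -0.37 for Gstz1. CT485616.1, which overlaps the start of Rasal3, a Ras regulator of blood cells, had 90, 53 and 66 counts against 11, 13 and 3 (log2 fold change -2.46, SE 0.33), beside -0.07 for Rasal3. In these 3 genes the PBS libraries spread more, relative to their mean, than in the abundant members below, and the groups still did not overlap.

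Deeper counts gave narrower errors for 3 further falls. Gm12905, one of the 6 members highest per kb, had 605, 586 and 558 counts with PBS and 72, 71 and 61 with LPS, a log2 fold change of -2.63 (SE 0.10, edgeR adjusted p = 7.06e-14). It runs into the 3′ side of Mycbp, which codes for a MYC-binding protein and had a log2 fold change of 0.00, and starts 177 bp from Rragc, a gene of mTORC1 control, with a log2 fold change of -0.23. Gm4673 had 449, 408 and 446 counts against 60, 69 and 59 (log2 fold change -2.32, SE 0.11). It runs into Lsr, with a log2 fold change of -0.06, and starts 106 bp from the transcription factor gene Usf2, with -0.09. 9130221H12Rik, inside Gsk3a, a glycogen synthase kinase gene, had 412, 397 and 356 counts against 33, 38 and 42 (log2 fold change -2.89, SE 0.12), beside 0.08 for Gsk3a.

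Members without a testable partner fell too. Gm26947, named after its values were seen, had 394, 348 and 367 counts with PBS and 84, 87 and 80 with LPS, and fell by 1.67 on the log2 scale (SE 0.10, edgeR adjusted p = 6.18e-11). Gm15859, which overlaps no coding gene of the other strand, had 86, 101 and 105 counts with PBS and 5, 3 and 9 with LPS (log2 fold change -3.61, SE 0.28, edgeR adjusted p = 2.36e-09). 9530082P21Rik had 208, 197 and 218 counts against 35, 22 and 25 (log2 fold change -2.45, SE 0.16), and its partner Kremen2, a Wnt pathway receptor gene, had 0 counts in all libraries.

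Levels were low for most members. The mean level over the 6 libraries ran from 0.0425 to 55.5 CPM per kb of exon, with a median of 0.816 and quartiles of 0.434 and 1.61, beside a median of 4.72 CPM per kb for tested coding genes. Of 172 members with a tested partner, 145 were below it per kb and 27 above it, and the median member reached 12.3% of its partner per kb. The highest was 4930430E12Rik, which overlaps no coding gene of the other strand, with 43.0 ± 2.31 CPM with PBS and 82.9 ± 3.63 CPM with LPS (SD, n = 3) and a log2 fold change of 0.95 that stayed under the criteria. F630028O10Rik followed with 154 ± 3.61 and 74.5 ± 5.96 CPM. Tug1, a widely expressed long non-coding RNA that shares its promoter region with Morc2a, had 96.2 ± 5.49 and 96.7 ± 6.73 CPM and a log2 fold change of 0.01 (edgeR adjusted p = 0.890).

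Dnmt3aos and Zeb2os, also among the highest, lie inside genes of the DNA methyltransferase Dnmt3a and of the repressor Zeb2. Dnmt3aos had 16.6 ± 0.0479 CPM with PBS and 9.49 ± 0.554 CPM with LPS (SD, n = 3), a log2 fold change of -0.81, beside -0.13 for Dnmt3a. Zeb2os had 15.0 ± 0.738 and 21.9 ± 0.796 CPM, a log2 fold change of 0.55, beside 0.61 for Zeb2, and the ratio of the 2 changed by -0.07 (SE 0.06, limma adjusted p = 0.341).

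The members named for a coding gene with the ending os, for opposite strand, form a group set by name. Of these 28 members, 3 rose (Il1bos, Dnm3os and Map2k3os), 8 fell and 17 did not pass, with log2 fold changes between -0.95 and 0.76 among the 17. Besides H3f3aos, those that fell were Fbxl12os (-1.86), Arhgap27os2 (-1.85), Tmem147os (-1.65), Frmd8os (-1.59), Mypopos (-1.45), Etaa1os (-1.14) and Man2c1os (-1.13). Etaa1os starts 95 bp from Etaa1, a replication stress gene. It had 35, 30 and 27 counts against 14, 8 and 8, and Etaa1 had 544, 507 and 546 against 62, 66 and 75, a log2 fold change of -2.50. Without LPS replicate 3, the log2 fold change of Etaa1os was -0.99 and did not pass.

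The imprinted antisense RNAs Kcnq1ot1 and Airn, named after their values were seen, moved in opposite directions. Kcnq1ot1 lies inside Kcnq1 and had 5419, 4997 and 5475 counts with PBS and 1737, 1644 and 1879 with LPS, with a log2 fold change of -1.12 (SE 0.04, edgeR adjusted p = 4.51e-14). Kcnq1, a potassium channel gene, had only 22, 25 and 22 counts against 16, 14 and 15. Airn had 317, 268 and 287 counts against 483, 411 and 478, a log2 fold change of 1.12 (SE 0.08, edgeR adjusted p = 7.63e-10), and Igf2r, the receptor gene that it overlaps, had a log2 fold change of 0.55. The ratio of Airn to Igf2r changed by 0.57 (SE 0.08, limma adjusted p = 2.63e-05), below the criterion of size.

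Of the 214 members, 195 overlapped a coding gene of the other strand and 19 did not; in 172 pairs, with 170 distinct partners, both genes were tested. Of the 21 antisense genes in these pairs that rose, 13 had a partner that rose, 8 a partner that did not pass and 0 a partner that fell. Of the 43 that fell, 38 had a partner that did not pass, and in 33 the partner was within 0.5 of no change on the log2 scale. Most partners did not pass in any case: over all 172 pairs, 23 partners rose and 8 fell. Where the antisense gene did not pass, 9 partners rose, 4 fell and 95 did not pass. The median log2 fold change of the partners was 1.16 beside antisense genes that rose and -0.06 beside those that fell. Across the 172 pairs, Pearson's r of the 2 log2 fold changes was 0.58 and the Spearman coefficient 0.41, and 0.45 and 0.40 over 171 pairs without Il1b; pairs share libraries, and overlapping exons may share reads.

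In 4 pairs both genes fell and in 1 they moved apart, and these were named after their values were seen. Gm15441 spans Txnip, a brake on glucose uptake, and had 79, 93 and 64 counts against 5, 15 and 17 (log2 fold change -2.19), while Txnip had 53320, 49349 and 50147 against 1122, 1094 and 1104 (log2 fold change -5.05). Gm15964 (-1.20) fell beside Dnajc28 (-3.60), Gm38336 (-1.0) beside Arhgef4 (-1.14), and Gm20632 (-1.14) beside Hist2h2aa2 (-1.11), a histone gene with near-identical copies whose counts are uncertain. 1700099I09Rik fell (-1.01) inside Mast4, a kinase gene that rose (1.38).

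**Figure D2:**
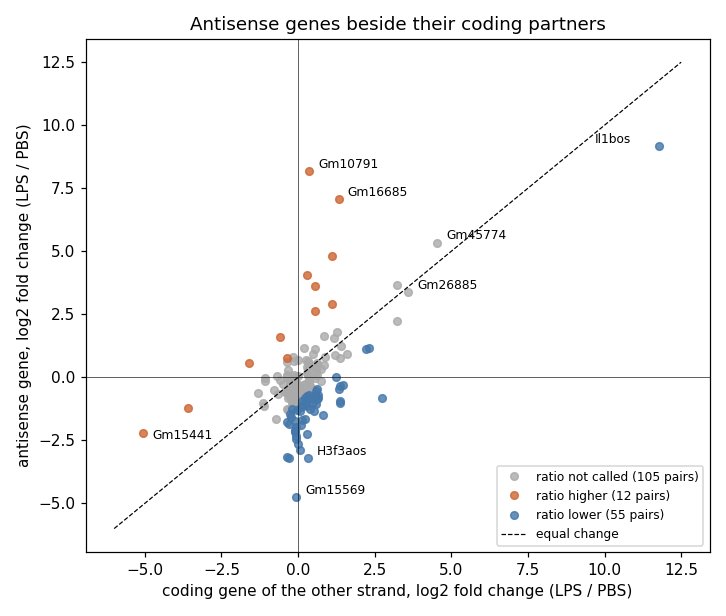
Log2 fold change (LPS / PBS) of each antisense gene (y axis) against that of the coding gene of the other strand (x axis) for 172 pairs, coloured by the call on the ratio of the 2; the dashed line marks equal change. Genes that fell spread down a column near 0 on the x axis, and Il1bos lies at 9.17 beside 11.77 for Il1b.

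The ratio of the 2 genes within a library does not depend on the scaling between libraries, and it tests whether the strands changed differently. In the 172 pairs the ratio of antisense to coding gene was higher with LPS in 12 (6.98%) and lower in 55 (32.0%), and 105 did not pass (limma on log2 ratios, adjusted over 1740 pairs of any gene with a coding gene of the other strand). Over all 646 pairs of a non-coding with a coding gene, 12.4% were higher and 29.6% lower, and over all 1740 pairs 28.7% changed in either direction. The members' share of lower ratios was near that background, and their share of higher ratios was below it. The median change of the ratio was -0.53.

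The 4 highest changes of the ratio were those of Gm10791 to App (5.96, SE 0.26), Gm16685 to Il7 (5.32, SE 0.39), Gm44672 to Sec23ip (3.61, SE 0.26) and Gm20655 to Txlnb (3.13, SE 0.34). The 4 lowest with a prior count of 2 were Il1bos to Il1b (-4.43, SE 0.23), Gm15569 to Cerk (-3.50, SE 0.38), E430024P14Rik to Tagap (-3.46, SE 0.27) and H3f3aos to H3f3a (-3.33, SE 0.22). Their order depends on the prior count: with 0.5 the values were -3.08 for Il1bos, -4.61 for Gm15569, -3.52 for E430024P14Rik and -3.49 for H3f3aos, so that Il1bos, with 0, 1 and 1 counts in PBS libraries, was no longer the lowest. Beside E430024P14Rik, as beside Il1bos, the coding gene rose: Tagap had 785, 669 and 786 counts against 3583, 3508 and 3676 (log2 fold change 2.74), while E430024P14Rik had 32, 30 and 23 against 11, 13 and 11 (-0.80).

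**Figure D3:**
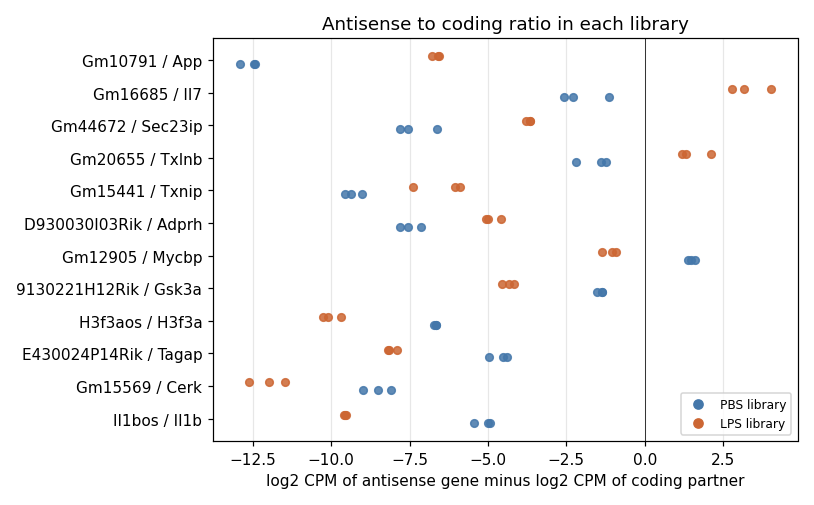
Log2 CPM of the antisense gene minus log2 CPM of its coding partner (x axis, prior count of 2) in each PBS (blue) and LPS (orange) library for the 6 pairs with the highest and the 6 with the lowest called change of the ratio. The libraries of the 2 groups do not overlap in any of these 12 pairs, and the ratio changes sign in 3 of them, Gm16685 to Il7, Gm20655 to Txlnb and Gm12905 to Mycbp.

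Few partners were on a list of inflammatory response genes. Of the 5 members beside such a gene, 3 rose and 0 fell, with a median log2 fold change of 1.13. Over all members 12.6% rose and 25.7% fell, and over all genes tested 10.5% and 10.4%. With 5 genes, no comparison with these shares was made. The 3 that rose were Il1bos and Gm26885, described above, and Gm16174 inside Bcl3, a nuclear regulator of NF-kappaB. Gm16174 had 31, 30 and 37 counts against 56, 46 and 53 (log2 fold change 1.13, SE 0.19, edgeR adjusted p = 5.25e-05). It did not pass with upper quartile scaling (0.99) or with scaling by library size alone (0.73). Bcl3 had a log2 fold change of 2.21, and the ratio changed by -1.12 (limma adjusted p = 1.81e-04). Junos (47, 40 and 55 counts against 17, 28 and 39) and Gm11175 (58, 44 and 38 against 31, 32 and 34), beside the AP-1 genes Jun and Jund, had log2 fold changes of -0.29 and -0.06 with overlapping groups. The 1 member beside a Zfp gene, Zfp335os, had a log2 fold change of 0.76 beside -0.36 for Zfp335, and the ratio was higher by 1.11 (limma adjusted p = 2.13e-04).

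The medians were listed by how the 2 genes lie to each other. Of 72 head-to-head members, which share the region of both 5′ ends with the partner, 14 rose and 16 fell, with a median log2 fold change of -0.21. Of 52 tail-to-tail members, which run into the 3′ end of the partner, 3 rose and 17 fell, with a median of -0.65. Of 60 members inside a partner, 7 rose and 11 fell (median -0.50), of 11 that span a partner 0 rose and 6 fell (median -1.01), and of the 19 with no coding partner 3 rose and 5 fell (median -0.18). The median change of the partners was between -0.24 and 0.22 in each arrangement. The ratio was higher in 7 and lower in 19 of 69 head-to-head pairs, and higher in 0 and lower in 20 of 44 tail-to-tail pairs. It was higher in 3 and lower in 14 of 51 inside pairs, and higher in 2 and lower in 2 of 8 spanning pairs. Median ratio changes were -0.40, -0.86, -0.47 and -0.04 in that order. Of the partners in the 8 spanning pairs, 1 rose and 3 fell. The arrangements were not compared by a test.

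Arrangement does not say where an antisense RNA starts, since a tail-to-tail gene can start at the promoter of the next coding gene. In all, 98 members started within 1 kb of a coding start on the other strand: in 48 that gene was the partner and in 50 another gene. Of the 52 tail-to-tail members, 32 were among them. Of the 98, 11 rose and 31 fell (median -0.47), and of the other 116, 16 rose and 24 fell (median -0.45). Of the 95 coding genes at these starts that were tested, counted once per member, 6 rose and 6 fell, with a median log2 fold change of 0.03. Of the 11 members that rose at such a start, 4 faced a gene that rose, and of the 29 that fell with a tested neighbour, 4 faced a gene that fell.

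Few genes that end, degrade or sense such RNAs passed the criteria. Of 57 symbols listed, 52 were tested: 4 rose and 1 fell, with a median log2 fold change of -0.10. Over all genes tested, 10.5% rose and 10.4% fell. Changes short of 1 log2 unit were also present in the list, such as those of Ago2 (0.86) and Cpsf4 (-0.85). Among the Exosc genes of the exosome, Exosc1 (-0.49), Exosc2 (-0.42), Exosc5 (-0.43), Exosc7 (-0.63) and Exosc8 (-0.46) were lower with LPS. Exosc10 was higher (0.29), and Exosc3 (-0.08) and Exosc9 (-0.02) hardly changed. Among 19 genes of the nuclear exosome and its adaptors, Rbm7, a subunit of the complex that delivers promoter-upstream RNAs to the exosome, rose from 79.4 ± 4.40 to 176 ± 3.80 CPM (log2 fold change 1.15, edgeR adjusted p = 1.55e-14), and the exosome core gene Exosc4 fell from 15.8 ± 1.10 to 7.30 ± 0.732 CPM (log2 fold change -1.11, edgeR adjusted p = 1.21e-09; SD, n = 3). Among 17 termination genes, Pcf11, a cleavage and termination factor, rose from 66.2 ± 2.05 to 170 ± 9.62 CPM (log2 fold change 1.36). Among 16 genes that edit, cut or sense double-stranded RNA, Ifih1, which codes for the sensor MDA5, rose with a log2 fold change of 1.80 and the RNA-editing gene Adarb1 with 1.04 from a mean of 1.29 ± 0.337 CPM. Their part in the antisense values was not tested.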

How the data were processed

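RNA-seq of 6 libraries (3 PBS, 3 LPS, 1 h) was analysed. The authors aligned paired-end reads (HISAT2 2.1.0, GRCm38), used SAMtools 1.17 and FastQC 0.11.9, and deposited raw counts per gene from featureCounts 2.0.0; the annotation release, strand setting and handling of multi-mapping reads are not given in the sources used here. Identifiers were matched to GENCODE M21 without version (55154 of 55335), and coordinates are GRCm38, counted from 1.

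Counts were tested in R 4.3.3 with edgeR 4.0.16 (filterByExpr, 15687 genes, TMM, quasi-likelihood test, Benjamini-Hochberg over all tested genes). Calls needed both an adjusted p below 0.05 and a log2 fold change beyond 1 in either direction. CPM are TMM-scaled, as mean ± SD over 3 libraries, and per kb of merged exons between genes. The partner is the coding gene of the other strand with the largest overlap of spans. The log2 ratio of a gene to its partner (log2 CPM, prior count of 2) was tested with limma 3.58.1 with trend. Intervals are exact at 95% and hold counting error alone, as no molecular identifiers were used. DESeq2 1.42.0, limma voom, other scalings and filters, and leaving out each library were alternatives. The functions were tested on simulated counts. An exact permutation test of 3 against 3 libraries reaches p = 0.1 at best, and nothing in the labels says that replicates came from separate animals, so p-values measure the spread between these libraries.

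The members, lists and tests were chosen with earlier results of these data known. Genes named are the 10 highest and 10 lowest log2 fold changes among called members with a mean of at least 20 counts and the same direction in each pair, the 6 highest per kb, members beside inflammatory genes, members named for a coding gene with os, the 4 highest and 4 lowest called ratios, their partners, and 2 genes on either side of the threshold; others are named as chosen after their values were seen. The labels carry a batch field that gives same-numbered PBS and LPS libraries the same batch, and the pairing rests on that field alone; after subtracting group means, the PBS and LPS libraries of number 1, 2 and 3 correlated across genes at -0.0139, 0.0822 and 0.0387.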

Additional observations from a re-analysis of the deposited data

How the results depend on the processing

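With the replicate block, which follows the batch field of the labels, 27 members rose and 55 fell (median log2 fold change -0.46), and 12 ratios were higher and 55 lower; the replicate block changed no call of a named gene or ratio. Library size alone gave 91 falls and a median of -0.87, and upper quartile scaling a median of -0.61. A filter of 10 counts in every library tested 173 members, with 14 rises and 29 falls, and left 5 higher and 36 lower ratios in 136 pairs. Members of at least 60 counts gave 46 rises and 95 falls, members of at least 240 counts 14 and 32, members with no exon base inside an exon of the other strand 11 and 6 (median -0.22), and pairs with no shared exon base 5 higher and 8 lower ratios. A minimum of 60 counts in each group, an alternative chosen after seeing the data, gave 12 and 27 (median -0.30). Fewer members or pairs enter each of these subsets. DESeq2's size factors and its test each gave 27 rises and 52 falls, and limma voom 27 and 55. Leaving out 1 library gave 26 to 29 rises, 52 to 57 falls and medians from -0.49 to -0.40, with 12 to 16 higher and 50 to 57 lower ratios and medians from -0.55 to -0.49.

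Of 133 named genes and ratios, 16 changed side of the criteria under at least 1 alternative, and none reversed. Lrrc75aos2 passed without LPS replicate 1 (-1.02) or PBS replicate 1 (-1.04), and Tnfsf13os without LPS replicate 1 (-1.06). The ratio of Plxna4os1 to Plxna4 (-1.02) was -0.90, -0.91 and -0.97 without LPS replicate 1, PBS replicate 1 and PBS replicate 2, that of Mypopos to Mypop (-1.20) was -0.98 without LPS replicate 1 and -0.85 without PBS replicate 3, and that of Hectd2os to Hectd2 (-1.04) was -1.0 without LPS replicate 2 and -0.91 without PBS replicate 1. The cause was not tested. A gene at 0 to 3 counts in a library gives a fold that depends on the prior count.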

Other observations

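Gm15564, a tail-to-tail member beside Parp9, had 132 counts in PBS replicate 1 against 11 and 28 in PBS replicates 2 and 3, and 13, 11 and 48 in LPS replicates 1, 2 and 3. Its log2 fold change was -0.77 with a standard error of 0.63 (adjusted p = 0.293 by edgeR), while Parp9 had between 5823 and 6474 counts in PBS libraries. It was named after its values were seen. Below the threshold of 120 counts, 1334 further antisense genes had a count, of which 168 were tested, 28 rose and 50 fell.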
